A study of Homo sapiens with 6 samples.

Results

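The genes described here are 10 members of the Notch pathway that were matched by symbol to single rows of the deposited gene table: the receptors NOTCH1, NOTCH2 and NOTCH3, the ligands DLL1 and JAG1, the transcription factor genes HEY1, HEYL, HES1 and HES4, and the feedback regulator NRARP. They are 10 of 60179 gene features, and all 10 were among the 17449 features with enough counts to be tested. The set was chosen by the HEY1 values, which were higher after light in these same libraries, so HEY1 is described without a test and its level supports nothing else here. The values of the other 9 members took no part in that choice, although their results were known when the set was drawn up.

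The cells were HEK293T, a human embryonic kidney line, co-transfected with the plasmids pShP2419 and pStH1169, which serve to express a human TET2 that light can switch on. TET2 oxidises 5-methylcytosine in DNA. All 6 libraries came from cells that carried both plasmids and were kept for 48 h with 0.1 mM of a serine whose side chain is masked by a dimethoxynitrobenzyl group, and each was made from 500000 sorted transfected cells. The 2 caged libraries (0 h) received no light, the 2 uncaged 4 h libraries were taken 4 h after 3 min of 365 nm light, and the 2 uncaged 8 h libraries 8 h after the same exposure. No group had light without the plasmids, so light, handling, time and the enzyme cannot be told apart in any difference from caged cells. Whether replicates were separate cultures is not labelled, and a p-value here sets a difference against library spread alone, which may be technical.

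Library totals were 17490010 to 20025955 estimated counts. Plasmid sequences made up 11.5% to 11.8% of the caged libraries and 14.8% to 15.5% of the libraries after light, so they moved with the groups, and their part in the differences below was not tested. All 10 marker genes listed for HEK293T stood above 1 CPM (the normalised count, scaled to library size) in every library, with a summed level of 707 to 741 CPM in caged cells, 662 to 665 CPM at 4 h and 662 to 673 CPM at 8 h. Of 10 markers of blood, liver, endothelium, muscle and fibroblasts, 7 stayed under 1 CPM in all libraries and CD3E and CDH5 were at 0. The summed level of these 10 was 20.6 to 23.3 CPM in caged cells, 21.2 to 22.7 CPM at 4 h and 19.9 to 22 CPM at 8 h, most of it COL1A1 at 16.9 to 19.6 CPM.

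In the Notch pathway a ligand on one cell, such as DLL1 or JAG1, binds a Notch receptor on its neighbour. The receptor is then cut by ADAM10 and by gamma-secretase, and its freed intracellular domain enters the nucleus, where it joins the DNA-binding protein RBPJ and a Mastermind coactivator. The complex switches on genes of the HES and HEY families, which encode basic helix-loop-helix repressors, and NRARP, which dampens the signal. Only mRNA was analysed here: receptor cleavage, the intracellular domain and DNA methylation at these genes were not. In bulk RNA, fewer cells that express a gene and less of its RNA per cell cannot be told apart.

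Among the receptors NOTCH1 rose by 4 h and was still higher at 8 h, and NOTCH3 was lower at 8 h. Of the target genes HES1 passed at 8 h, at the edge of the threshold, and HES4, HEYL and NRARP did not pass at either time, nor did NOTCH2 or the ligands. HEY1, whose values chose the set, stood about 2-fold higher after light. Of the 9 members other than HEY1, 1 passed the test at 4 h against caged cells and 3 at 8 h, in edgeR's quasi-likelihood test with Benjamini-Hochberg adjustment at 0.05. Over all tested features 9.72% passed at 4 h and 28.1% at 8 h. The median log2 fold change of the 9 was -0.04 at both times, beside -0.01 and -0.00 over all tested features. With libraries scaled by their totals the 8 h calls were 1 higher and 3 lower, in place of 2 higher and 1 lower.

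**Figure D1:**
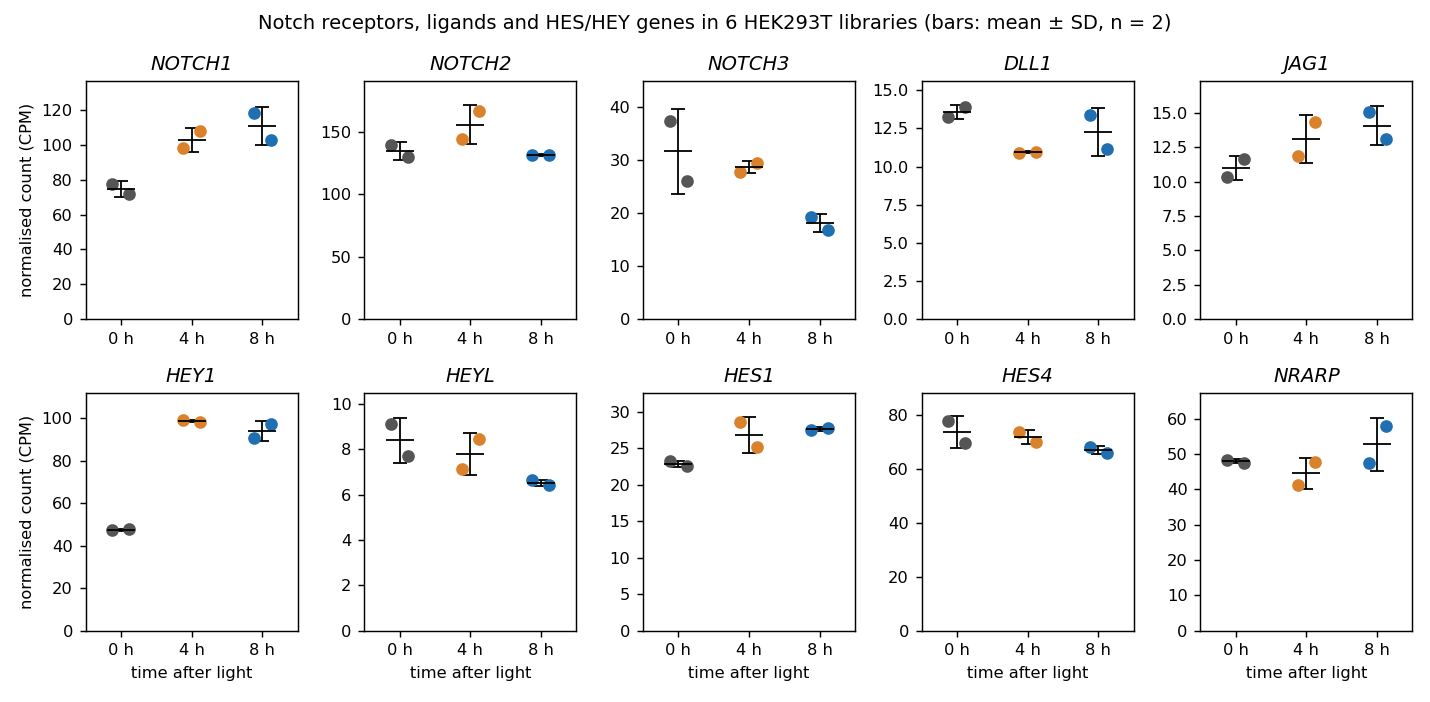
Normalised count (CPM, linear axis from 0) of each of the 10 genes in the 6 libraries, by time after light; points are libraries and bars are mean ± SD (n = 2). HEY1 lies at 47.2 and 47.8 CPM in caged cells and above 90 CPM in all 4 libraries after light, and NOTCH3 is lowest at 8 h.

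NOTCH1, the receptor gene at chromosome 9, 136494433 to 136545786 on the minus strand (ENSG00000148400.12; GRCh38, 1-based, GENCODE 29), held 77.7 and 71.6 CPM before light. The 4 h libraries held 98.2 and 107.9 CPM, and those of 8 h 118.4 and 102.9 CPM. All 4 libraries after light lay above both caged ones, and the 4 h and 8 h libraries overlapped. The log2 fold change was 0.46 ± 0.087 (SE; n = 2 libraries a group throughout) at 4 h (edgeR adjusted p = 0.0160) and 0.57 ± 0.087 at 8 h (edgeR adjusted p = 0.00299). The step from 4 h to 8 h was 0.10 ± 0.086 (edgeR adjusted p = 0.514, 95% interval -0.09 to 0.30). The 4 h call was lost without caged replicate 1, caged replicate 2 or 4 h replicate 2, with adjusted p up to 0.13, whereas the 8 h call passed whichever of the 6 libraries was dropped (adjusted p 0.00561 to 0.0232).

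NOTCH3, a receptor gene best known from vascular smooth muscle, lies at chromosome 19, 15159038 to 15200981 on the minus strand (ENSG00000074181.9). Its libraries held 37.4 and 26.1 CPM in caged cells, 27.9 and 29.6 CPM at 4 h and 19.3 and 16.9 CPM at 8 h. The caged replicates differed most, and the 4 h values lay between them; both 8 h libraries lay below all 4 others. NOTCH3 fell by 0.81 ± 0.163 on the log2 scale at 8 h against caged cells (edgeR adjusted p = 0.00869). Caged replicate 1 set much of that size: the change was -0.53 without it and -1.05 without caged replicate 2, and it passed in both fits. The weakest of the fits with a library left out came very close to the threshold. At 4 h the difference was -0.14 ± 0.154 (edgeR adjusted p = 0.600), and it turned to 0.14 without caged replicate 1. The step from 4 h to 8 h was -0.66 ± 0.167 and did not pass (edgeR adjusted p = 0.0680). It passed with DESeq2 (DESeq2 adjusted p = 0.0232) and with the 4 compared libraries alone (edgeR adjusted p = 0.0293). A replicate block with the 4 h numbers crossed, chosen after seeing the data, also called it. Other scalings, cyclic loess offsets, limma-voom, other filters and the plain replicate block did not. The fits without caged replicate 1 or caged replicate 2, which left 1 caged library, are not among those that did not call it. In both the step was -0.67.

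NOTCH2, a receptor gene widely expressed in epithelia, lies at chromosome 1, 119911553 to 120069626 on the minus strand (ENSG00000134250.20). Its values were 139.9 and 129.9 CPM in caged cells, 144.6 and 166.7 CPM at 4 h and 131.2 and 131.9 CPM at 8 h. The 4 h libraries were the highest and the 8 h ones lay within the caged range, but neither comparison passed: the log2 differences from caged cells were 0.21 ± 0.076 at 4 h (edgeR adjusted p = 0.126) and -0.04 ± 0.076 at 8 h (edgeR adjusted p = 0.749). NOTCH2 shares sequence with the NOTCH2NL genes, human copies of its first exons, and its estimates were not whole numbers (within 0.01) in all 6 libraries, which marks reads divided among transcripts. Of the copies, NOTCH2NLA averaged 6.43 to 8.92 CPM in the 3 groups, NOTCH2NLC 7.29 to 9.49 CPM and NOTCH2NLB 1.54 to 2.32 CPM, and NOTCH2NLR had 0 counts in all libraries. With NOTCH2 and its copies summed into 1 feature the differences were 0.19 ± 0.066 at 4 h and -0.04 ± 0.067 at 8 h, and neither passed (edgeR adjusted p = 0.108 and 0.686).

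Ratios between members within 1 library do not depend on how libraries are scaled. The ratio of NOTCH1 to NOTCH3 counts stood at 2.08 and 2.75 before light, 3.52 and 3.65 by 4 h and 6.13 and 6.09 by 8 h. The 3 groups did not overlap, and the mean moved from 2.41 ± 0.471 (SD, n = 2) in caged cells to 6.11 ± 0.0296 at 8 h. The ratio of NOTCH1 to NOTCH2 counts was 0.555 and 0.551 in caged cells, 0.679 and 0.647 at 4 h and 0.903 and 0.780 at 8 h, again without overlap. These ratios are not corrected for transcript length and compare libraries, not the 2 genes. No test was made of them, since the genes' own tests are given above.

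**Figure D2:**
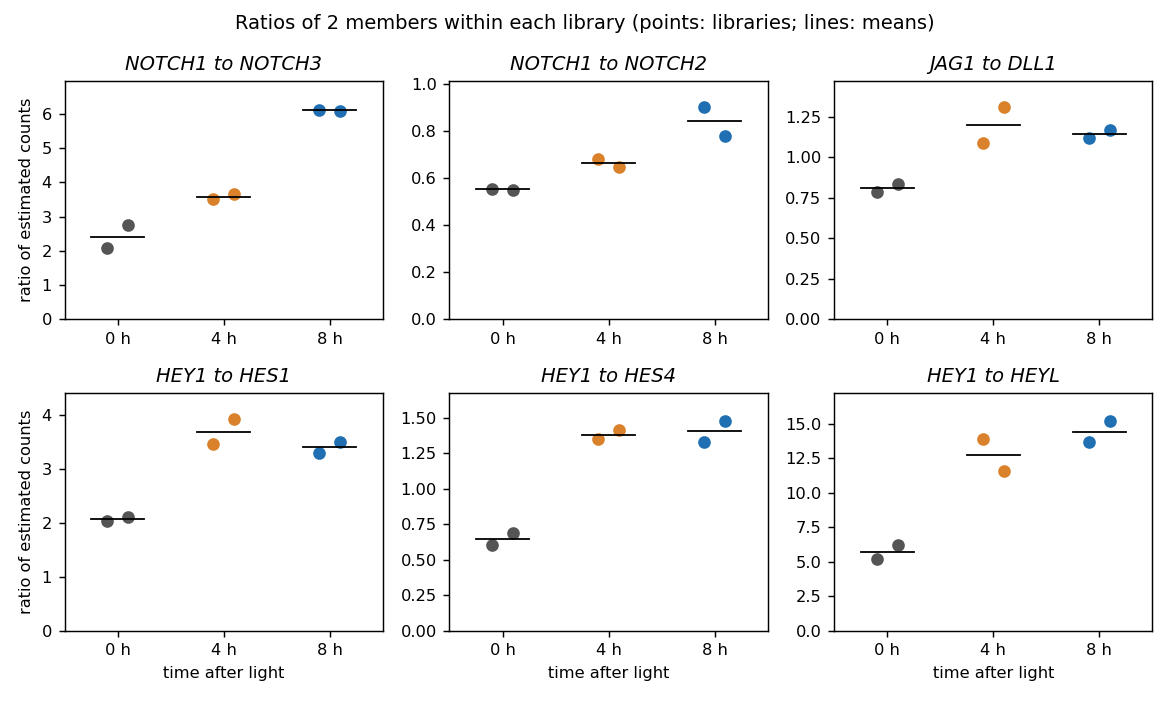
Ratio of the estimated counts of 2 members in each library (linear axes from 0), by time after light; points are libraries and lines are means (n = 2). NOTCH1 to NOTCH3 runs from 2.08 and 2.75 in caged cells to 6.13 and 6.09 at 8 h. The ratios of HEY1 to HES1, HES4 and HEYL are higher in all 4 libraries after light than in caged cells. HEY1 values chose the set, so these HEY1 ratios are a description only.

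Of the ligand genes neither passed against caged cells. DLL1, a Delta-type ligand (chromosome 6, 170282206 to 170306565, minus strand), held 13.2 and 13.9 CPM in caged cells, 10.89 and 10.98 CPM at 4 h and 13.4 and 11.2 CPM at 8 h. Both 4 h libraries lay below the caged ones and of the 8 h libraries 1 lay inside the caged range and 1 below it; the log2 differences were -0.31 ± 0.120 (edgeR adjusted p = 0.141) and -0.14 ± 0.119 (edgeR adjusted p = 0.402). JAG1, a Serrate-type ligand (chromosome 20, 10637684 to 10673999, minus strand), held 10.4 and 11.6 CPM, then 11.9 and 14.4 CPM at 4 h and 15.1 and 13.1 CPM at 8 h. All libraries after light lay above the caged ones for JAG1, but the differences of 0.26 ± 0.136 (edgeR adjusted p = 0.273) and 0.36 ± 0.136 (edgeR adjusted p = 0.0842) did not pass, and the later one did so with cyclic loess offsets (0.54, adjusted p = 0.0259). The ratio of JAG1 to DLL1 counts was 0.782 and 0.837 in caged cells. It was 1.09 and 1.31 at 4 h and 1.12 and 1.17 at 8 h, higher in each library after light than in both caged ones. These reads are not corrected for length, so a ratio of 1 does not mark equal levels. Per kb of merged exons DLL1 averaged 4.21 CPM in caged cells, 3.39 CPM at 4 h and 3.81 CPM at 8 h. JAG1 averaged 1.18, 1.41 and 1.51 CPM per kb.

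HEY1, a repressor of the HEY family (ENSG00000164683.17; chromosome 8, 79764010 to 79767863, minus strand), had 866 and 864 estimated counts before light, 1510 and 1488 by 4 h and 1313 and 1394 by 8 h. On the normalised scale that was 47.2 and 47.8 CPM, 99.1 and 98.4 CPM, and 90.6 and 97.4 CPM. The replicates lay close together at 0 h and 4 h, and no library after light came near the caged level. The fitted difference was 1.06 ± 0.064 on the log2 scale at 4 h and 0.98 ± 0.064 at 8 h, that is 2.08-fold and 1.98-fold. The step between the times was -0.07 ± 0.062, with a 95% interval of -0.21 to 0.07. These values chose the set and are a description only. Their SEs and interval take no account of that choice and cannot serve as a test. All HEY1 estimates were whole numbers, that is, no fractional share of a read with another gene showed in its sums.

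HEYL, the other HEY gene of the set (chromosome 1, 39624153 to 39639945, minus strand), was scarce at 9.10 and 7.69 CPM in caged cells, 7.15 and 8.46 CPM at 4 h and 6.63 and 6.43 CPM at 8 h. The 8 h libraries were the lowest, but the difference from caged cells of -0.36 ± 0.153 did not pass (edgeR adjusted p = 0.109, 95% interval -0.71 to -0.01). HEYL passed at 8 h only where libraries were scaled by their totals (-0.47, adjusted p = 0.0481). At 4 h it stood at -0.10 ± 0.149 (edgeR adjusted p = 0.700). HEYL rested on 92 to 167 counts a library.

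HES1, the best known direct Notch target and a repressor that also acts on its own gene, lies at chromosome 3, 194136145 to 194138732 on the plus strand (ENSG00000114315.4). It held 23.2 and 22.6 CPM in caged cells, 28.6 and 25.1 CPM at 4 h and 27.5 and 27.8 CPM at 8 h. Every library after light lay above both caged ones. The log2 difference was 0.23 ± 0.087 at 4 h (edgeR adjusted p = 0.136) and 0.27 ± 0.087 at 8 h (edgeR adjusted p = 0.0498). The 8 h call stood at the edge of the threshold and was lost whichever of the 6 libraries was dropped (adjusted p 0.0515 to 0.180), with library totals or upper-quartile factors, with DESeq2 and limma-voom, and without a low-count filter.

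HES4, a human HES gene with no mouse counterpart (chromosome 1, 998962 to 1000172, minus strand), held 77.7 and 69.5 CPM in caged cells, 73.5 and 70.0 CPM at 4 h and 67.9 and 65.8 CPM at 8 h. The 4 h values lay inside the caged range and the 8 h values just below it. Neither difference passed (-0.04 ± 0.073, edgeR adjusted p = 0.789, and -0.14 ± 0.074, edgeR adjusted p = 0.191), although with library totals the later one did (-0.24, adjusted p = 0.0378). NRARP, which encodes a small ankyrin-repeat protein that binds the Notch transcription complex (chromosome 9, 137300482 to 137302251, minus strand), held 48.3 and 47.5 CPM, then 41.3 and 47.6 CPM at 4 h and 47.4 and 58.0 CPM at 8 h. Its groups overlapped in every comparison, with differences from caged cells of -0.11 ± 0.107 at 4 h (edgeR adjusted p = 0.574) and 0.14 ± 0.106 at 8 h (edgeR adjusted p = 0.364, 95% interval -0.10 to 0.38). The ratio of HEY1 to NRARP reads, not corrected for length, was 0.977 and 1.01 before light, 2.40 and 2.07 by 4 h and 1.91 and 1.68 by 8 h. It carries the HEY1 values that chose the set and is a description only.

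**Figure D3:**
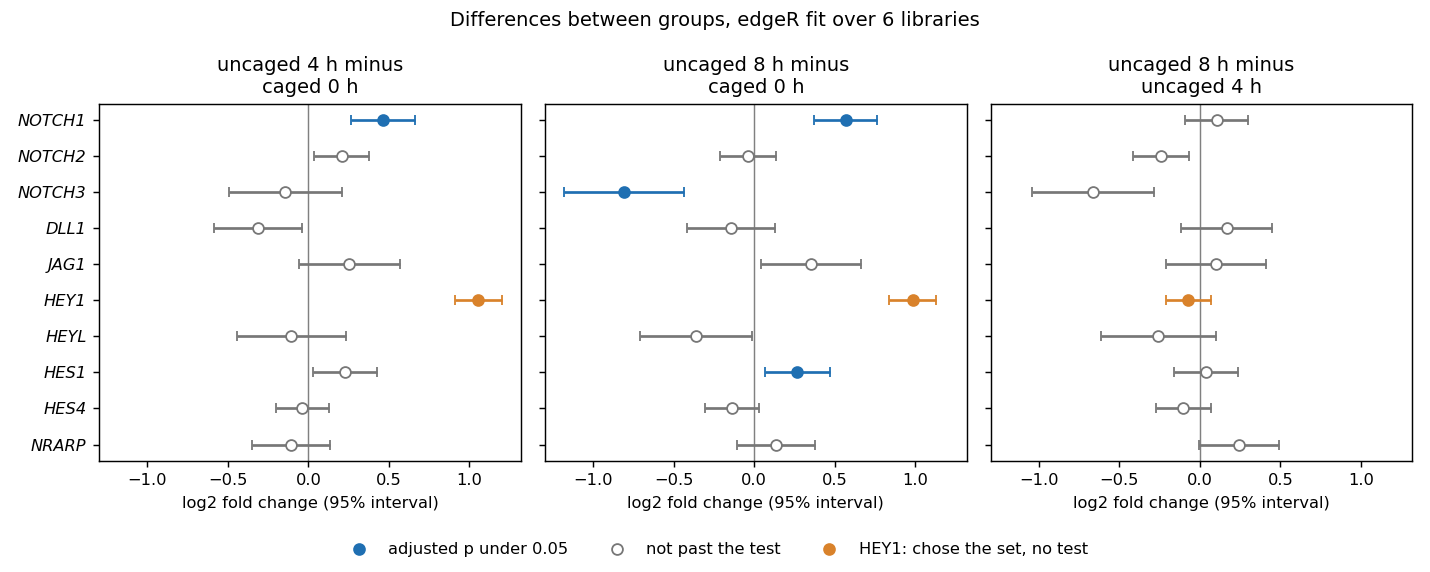
Log2 fold change with its 95% interval for each of the 10 genes in the 3 comparisons (edgeR fit over 6 libraries); filled blue points passed the test, open points did not, and orange marks HEY1, which was not tested. NOTCH1 passed at 4 h and 8 h, NOTCH3 and HES1 at 8 h, and no member passed between 4 h and 8 h. The HEY1 intervals take no account of the choice of the set by HEY1 and cannot serve as a test.

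The promoters of 3 of these targets are shown because RBPJ reaches HES and HEY genes through a short core motif, which the windows of HES1, HES4 and HEYL hold. Whether the motif has any part in the changes above was not tested. Each window runs from 250 bases before to 50 after the gene's start in RefSeq (GRCh38.p14), written 5′ to 3′ on the gene's strand, with capitals on each match of TGGGAA or its reverse complement TTCCCA.
HES1 (chr3:194135898-194136197, plus strand): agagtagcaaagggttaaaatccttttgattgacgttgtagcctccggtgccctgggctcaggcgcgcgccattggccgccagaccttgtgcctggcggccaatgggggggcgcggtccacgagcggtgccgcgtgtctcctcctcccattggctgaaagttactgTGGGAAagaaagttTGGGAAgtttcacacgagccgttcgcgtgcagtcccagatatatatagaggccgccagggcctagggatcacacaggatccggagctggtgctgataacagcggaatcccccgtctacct
HES4 (chr1:1000048-1000347, minus strand): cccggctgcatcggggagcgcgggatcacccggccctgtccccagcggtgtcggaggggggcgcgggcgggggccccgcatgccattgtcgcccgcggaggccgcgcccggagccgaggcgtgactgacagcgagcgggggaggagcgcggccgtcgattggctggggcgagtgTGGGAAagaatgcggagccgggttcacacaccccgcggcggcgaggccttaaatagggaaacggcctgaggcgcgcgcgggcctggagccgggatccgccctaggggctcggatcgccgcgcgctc
HEYL (chr1:39639594-39639893, minus strand): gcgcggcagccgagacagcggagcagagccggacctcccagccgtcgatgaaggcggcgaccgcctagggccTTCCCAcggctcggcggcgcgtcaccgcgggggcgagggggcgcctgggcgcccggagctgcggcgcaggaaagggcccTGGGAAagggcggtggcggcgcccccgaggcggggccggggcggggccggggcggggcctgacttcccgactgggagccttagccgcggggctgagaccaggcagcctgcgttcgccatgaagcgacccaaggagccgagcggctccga

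RefSeq windows of 8 of the 10 genes were used, those other than DLL1 and HEY1. Starts in RefSeq and in the GENCODE coordinates given above differed for some genes. The HEYL window, 39639594 to 39639893, lay wholly inside the GENCODE gene, which starts at 39639945 on the minus strand. For HES4 the GENCODE start, 1000172 on the minus strand, lay inside the window and upstream of the RefSeq start. The HES4 motif match given below spans that GENCODE start. For NRARP, NOTCH1, NOTCH2 and NOTCH3 the RefSeq start lay outside the annotated transcripts. Matches and their absence hold for these windows only, and which starts the cells used was not tested. The HES1 window held 2 matches of TGGGAA on the gene's strand, at -84 to -79 and -70 to -65 from the start, the HES4 window 1, at -76 to -71, and the HEYL window 2 on opposite strands. The windows of NRARP, JAG1 and the 3 receptor genes held none, and 24% of 35114 RefSeq windows of this length held at least 1. HES1 also had 4 matches of the N-box CACNAG (either strand), a motif that HES repressors bind and that 38% of all windows held, and none of the 4 overlapped the capitals. A match is a run of letters and does not show that a factor binds there. The CG dinucleotide, the site at which TET enzymes act when it is methylated, occurred 21 times in the HES1 window, 44 in HES4, 41 in HEYL, 46 in NRARP, 42 in NOTCH1, 37 in NOTCH3, 33 in NOTCH2 and 24 in JAG1, beside a median of 14 over all windows.

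The order of the genes by level was taken per length, as CPM per kb of merged exons. Merged exons join those of all annotated transcripts, and which transcripts the cells used was not tested. The order therefore depends on this length, 16807 bases for NOTCH2 and 10377 for NOTCH1. Before division by length NOTCH2 was the higher of these genes also at 8 h, at a mean of 131.5 CPM against 110.7 CPM. In caged cells the order from high to low was HES4 (65.8 ± 5.19, SD, n = 2), NRARP (27.1 ± 0.320), HEY1 (14.7 ± 0.136), HES1 (11.1 ± 0.199), NOTCH2 (8.03 ± 0.423), NOTCH1 (7.19 ± 0.419), DLL1 (4.21 ± 0.142), NOTCH3 (3.38 ± 0.852), HEYL (2.29 ± 0.272) and JAG1 (1.18 ± 0.0964). No neighbours in that order overlapped over the 2 caged libraries. At 4 h HEY1 (30.6 ± 0.152) stood above NRARP (25.13 ± 2.504), and NOTCH1 (9.93 ± 0.660) and NOTCH2 (9.26 ± 0.929) overlapped. At 8 h NRARP (29.8 ± 4.25) and HEY1 (29.1 ± 1.48) overlapped, as did NOTCH3 (1.93 ± 0.182) and HEYL (1.78 ± 0.0384), while NOTCH1 (10.7 ± 1.06) lay above NOTCH2 (7.83 ± 0.0283). HES4 was first and JAG1 last at each time.

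**Figure D4:**
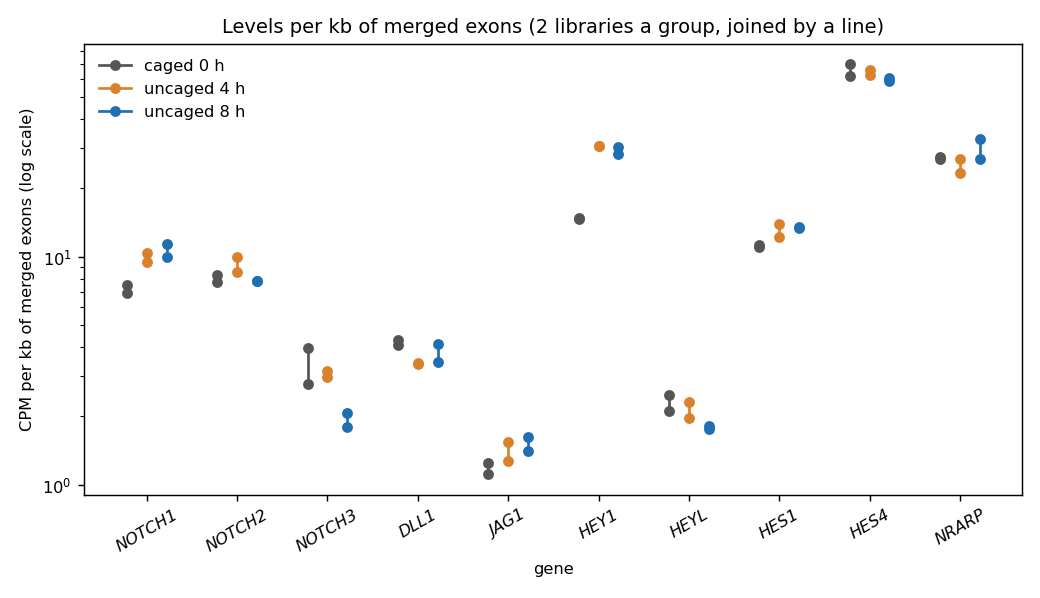
CPM per kb of merged exons (log axis) of the 10 genes; each pair of joined points is the 2 libraries of a group. HES4 is the highest in every group at 59 to 70, JAG1 the lowest at 1.1 to 1.6, and HEY1 moves from 14.6 and 14.8 in caged cells to between 28 and 31 after light.

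Between 4 h and 8 h none of the 9 tested members passed with edgeR, where 3.27% of all tested features did. At an unadjusted p under 0.05 there were 2, NOTCH2 (-0.24 ± 0.076, edgeR adjusted p = 0.109) and NOTCH3, and DESeq2 called 1. The 2 groups of libraries did not overlap for 5 of the 9 members, and for 53.3% of all tested features. Against caged cells the groups did not overlap for 5 of the 9 at 4 h (56.9% of all tested features) and for 6 of the 9 at 8 h (66.2%).

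The rest of the pathway was described through 112 further genes, listed by role, of which 100 were tested. At 4 h against caged cells 8 of these were called higher and 2 lower in the edgeR test, beside 6.16% and 3.56% of all tested features. At 8 h 10 were higher and 17 lower, beside 14.9% and 13.2%, and between the times 1 was higher and 4 lower, beside 2.05% and 1.21%. The median log2 fold change of the 100 was 0.00 at 4 h, -0.02 at 8 h and -0.07 for the step, beside -0.01, -0.00 and -0.00 over all features. When libraries were scaled by their totals, which moved the median of all features at 8 h from -0.00 to -0.11, the split at 8 h was 9 higher and 31 lower, and at 4 h 8 higher and 5 lower. The larger number of lower calls at 8 h did not hold throughout: DESeq2 called 11 higher and 8 lower, and the counts were 9 and 8 without caged replicate 1, 10 and 9 without caged replicate 2, 11 and 11 without 8 h replicate 1 and 9 and 6 without 8 h replicate 2. At 4 h DESeq2 called 10 higher and 0 lower. Single libraries moved these counts: at 4 h 6 genes were called without caged replicate 1 and 5 without caged replicate 2 or either 4 h library, at 8 h 17 without caged replicate 1 and 15 without 8 h replicate 2. Between the times 3 and 2 were called without caged replicate 1 or 2, 2 without 8 h replicate 1, and 0 without 8 h replicate 2 or either 4 h library.

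**Figure D5:**
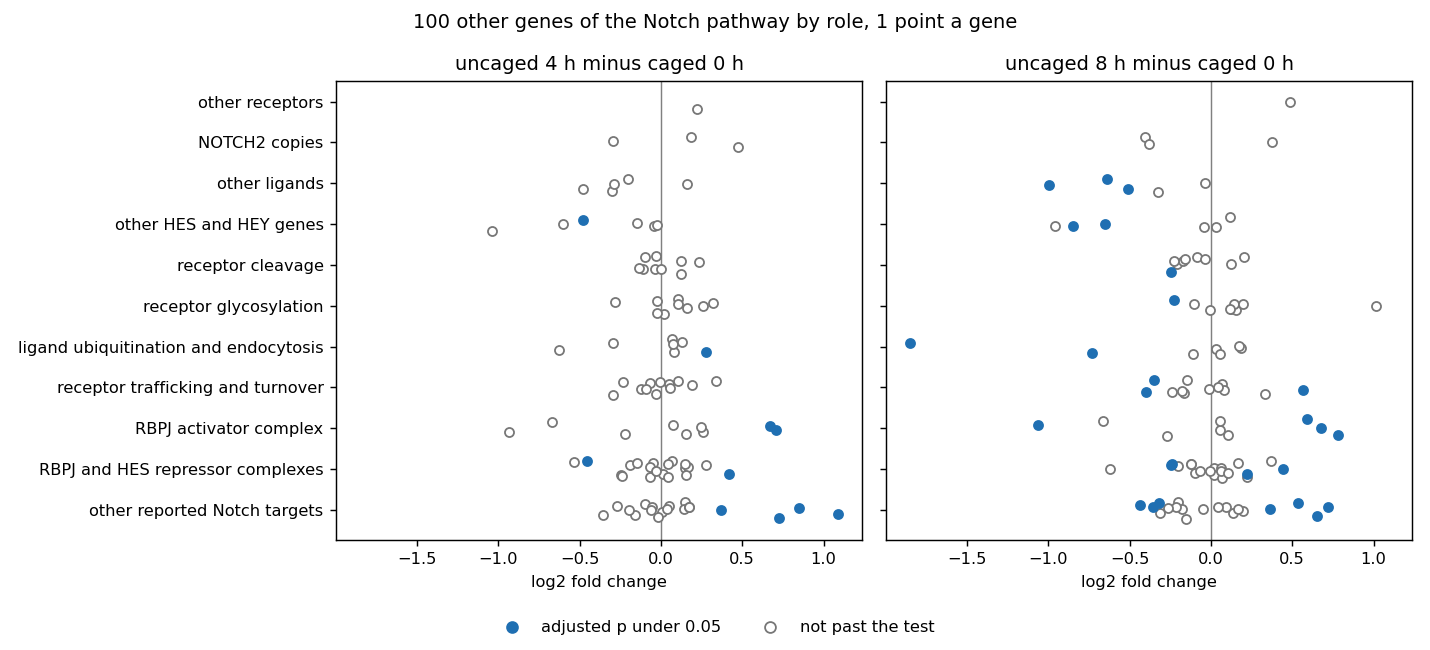
Log2 fold change of the 100 tested genes of the Notch pathway besides the members, in rows by role, at 4 h (left) and 8 h (right) against caged cells; each point is a gene, filled where it passed the test. Called points at 8 h lie on both sides of 0, with NEURL1B at -1.85 farthest to the left.

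On the side of the signal-sending cell, 3 of 5 tested ligand genes besides DLL1 and JAG1 fell at 8 h and none rose, where 13.2% of all tested features fell. DLL1 and JAG1, the other tested ligand genes, were not called, and JAG1 lay above the caged libraries in every library after light. CNTN1, a contactin that has been described as a Notch ligand, held 16.3 and 16.8 CPM in caged cells, 15.0 and 13.7 CPM at 4 h and 8.01 and 8.59 CPM at 8 h. Both 8 h libraries were far below the rest, with a change of -0.99 ± 0.110 (edgeR adjusted p = 0.000954). JAG2, a Serrate-type ligand like JAG1, changed by -0.51 ± 0.119 (edgeR adjusted p = 0.0155), and lost that call without caged replicate 1 or 8 h replicate 2. NEURL1B, a ubiquitin ligase that acts on ligands, held 5.68 and 6.62 CPM, then 3.70 and 4.31 CPM at 4 h and 1.71 and 1.69 CPM at 8 h. Its 3 groups did not overlap, with -0.63 ± 0.184 at 4 h (edgeR adjusted p = 0.0697) and -1.85 ± 0.206 at 8 h (edgeR adjusted p = 0.000954). The endocytic adaptor gene EPN2 fell by 0.73 ± 0.0953 at 8 h (edgeR adjusted p = 0.00170). NEURL1B and EPN2 were the 2 called of 7 tested genes for ligand ubiquitination and endocytosis at 8 h, where 28.1% of all tested features were called, and their estimates were not whole in any library, so shared reads leave them uncertain. At 4 h 1 of the 7 was called, DNM2, a dynamin gene of endocytosis (0.28 ± 0.0567, edgeR adjusted p = 0.0220), and it lost the call whichever of the 4 compared libraries was dropped. DNM2 estimates were likewise not whole in any library.

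The counts of called genes that process the receptor are read beside 9.72% of all tested features at 4 h and 28.1% at 8 h. Of 9 tested cleavage genes, which include ADAM10, ADAM17 and the gamma-secretase subunits, none was called at 4 h and 1 at 8 h, FURIN, the protease of the first receptor cut (-0.25 ± 0.0699, edgeR adjusted p = 0.0305). Of 9 tested glycosylation genes 1 was called at 8 h, POFUT1, which adds fucose to the receptor (-0.23 ± 0.0675, edgeR adjusted p = 0.0380), and it lost the call whichever library was dropped, as FURIN did for 4 of 6. Of 12 genes for receptor trafficking and turnover 1 rose and 2 fell at 8 h: FBXW7, whose product marks the Notch intracellular domain for destruction, rose by 0.56 ± 0.0942 (edgeR adjusted p = 0.00420), with 108.8 and 112.1 CPM in caged cells and 150.9 and 175.5 CPM at 8 h. NEDD4L (-0.35 ± 0.0977, edgeR adjusted p = 0.0292) and DTX2 (-0.40 ± 0.113, edgeR adjusted p = 0.0310) fell, and each lost its call without caged replicate 1, caged replicate 2 or 8 h replicate 2. Estimates were not whole in 6 libraries for DTX2, 5 for POFUT1, 4 for FBXW7 and 3 for NEDD4L.

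In the nucleus the DNA-binding partner itself did not pass: RBPJ held 75.1 and 79.1 CPM in caged cells and 80.8 and 84.9 CPM at 8 h (0.10 ± 0.0626, edgeR adjusted p = 0.245). Of 9 tested genes of its activator complex 2 rose at 4 h, and 3 rose and 1 fell at 8 h, beside 6.16% higher at 4 h and 14.9% higher and 13.2% lower at 8 h over all tested features. EP300, an acetyltransferase recruited through Mastermind, held 183.6 and 166.8 CPM in caged cells and 272.3 and 300.2 CPM at 4 h (0.71 ± 0.0704, edgeR adjusted p = 0.00191). Its paralogue CREBBP rose by 0.67 ± 0.0705 at 4 h and 0.68 ± 0.0706 at 8 h (edgeR adjusted p = 0.00236 and 0.000755). The Mastermind gene MAML2 was scarce and fell by 1.07 ± 0.270 at 8 h (edgeR adjusted p = 0.0206), with estimates that were not whole in any library and a call that was lost without caged replicate 2 or either 8 h library. Of 20 tested genes of the RBPJ and HES repressor complexes, 1 rose and 1 fell at 4 h, and 2 rose and 2 fell at 8 h, beside the same shares (3.56% lower at 4 h). TLE4, a Groucho-type corepressor that HES proteins recruit, held 164.2 and 162.6 CPM in caged cells, 219.0 and 218.4 CPM at 4 h and 223.8 and 220.0 CPM at 8 h (0.42 ± 0.0480 and 0.44 ± 0.0481, edgeR adjusted p = 0.00322 and 0.000899). TLE4 had estimates that were not whole in all 6 libraries. The gene that fell at 4 h was L3MBTL3, which encodes a methyl-lysine reader that binds RBPJ (-0.46 ± 0.105, edgeR adjusted p = 0.0326), and its call was lost whichever of the 4 compared libraries was dropped and with DESeq2. At 8 h the histone demethylase gene KDM5A rose by 0.22 ± 0.0698 (edgeR adjusted p = 0.0466), and FHL1 (-0.25 ± 0.0528, edgeR adjusted p = 0.0111) and the short Groucho-family gene TLE5 (-0.24 ± 0.0732, edgeR adjusted p = 0.0409) fell. The calls of KDM5A and TLE5 were each lost for 5 of 6 dropped libraries and that of FHL1 for 2, and FHL1 estimates were not whole in any library.

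None of the other HES and HEY genes was called higher, nor were the related genes BHLHE40 and BHLHE41, which are counted with them below. Of 6 tested, 1 fell at 4 h and 2 at 8 h, beside 3.56% and 13.2% of all tested features: BHLHE41, a related repressor gene of the circadian clock, held 10.95 and 11.29 CPM in caged cells, 7.80 and 8.13 CPM at 4 h and 7.11 and 7.06 CPM at 8 h (-0.65 ± 0.119 at 8 h, edgeR adjusted p = 0.00605). HES7, known for the segmentation clock, fell by 0.85 ± 0.226 at 8 h (edgeR adjusted p = 0.0247), and lost the call without caged replicate 1 or either 8 h library; the 4 h call of BHLHE41 was lost for 4 of 6 libraries. Of 19 tested genes reported elsewhere as Notch targets, 4 rose and none fell at 4 h, and 4 rose and 3 fell at 8 h, beside 6.16% higher and 3.56% lower at 4 h and 14.9% and 13.2% at 8 h over all tested features. MYC, a growth regulator, held 28.99 and 26.62 CPM in caged cells, 63.7 and 54.9 CPM at 4 h and 44.9 and 42.5 CPM at 8 h, a change of 1.09 ± 0.0914 at 4 h (edgeR adjusted p = 0.00109). SNAI2, a repressor of epithelial genes, rose by 0.85 ± 0.0872 at 4 h (edgeR adjusted p = 0.00218) and 0.53 ± 0.0893 at 8 h (edgeR adjusted p = 0.00421). CDKN1A, a gene for an inhibitor of the cell cycle, rose by 0.36 ± 0.0558 at 8 h (edgeR adjusted p = 0.00318), with estimates that were not whole in any library, and lost the call with cyclic loess offsets. The cyclin gene CCND3 (-0.32 ± 0.0681, edgeR adjusted p = 0.0106) and GATA3 (-0.43 ± 0.0777, edgeR adjusted p = 0.00549) fell at 8 h, and CCND3 lost its call without caged replicate 2 or 8 h replicate 2. Many of these genes respond to other signals as well, so their inclusion in the list does not tie a change to Notch.

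The profiles nearest to that of HEY1 over the 6 libraries are given as a description, since HEY1 values chose the set. The measure was the root mean square difference in log2 CPM after the caged mean was subtracted, over 14418 tested features with a symbol and at least 1 CPM on average. The 5 nearest were GLS2 (0.108), KDM8 (0.110), PIGW (0.119), PER2 (0.129) and GRIN2C (0.129). GLS2, a mitochondrial glutaminase gene, averaged 0.714 CPM in caged cells, 1.58 CPM at 4 h and 1.52 CPM at 8 h, and the circadian repressor gene PER2 17.8, 34.3 and 31.7 CPM. GLS2 reached the mean of 1 CPM only through the libraries after light. Estimates were not whole in 5 libraries for GLS2 and in 6 for KDM8, PIGW and PER2. RLE factors, upper-quartile factors and library totals gave the same 5 genes. Scaling shifts every gene of a library alike and drops out of the difference from HEY1, so these could hardly have differed. This is a likeness of values over 6 libraries only.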

How the data were processed

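Messenger RNA was sequenced from 6 HEK293T libraries in 3 groups of 2, grouped by their titles. The authors deposited estimated counts for 60184 features. The submitters' processing notes name Salmon 1.1.0, DESeq2, R 3.6.1 and the GRCh38 build. Transcript annotation and strand setting: not given in the sources used here. Counts were rounded, and 5 plasmid sequences were left out of library sizes. Features passed filterByExpr (minimum count 10, minimum total 15) and were fitted over all 6 libraries with TMM factors by edgeR 4.0.16 (quasi-likelihood, legacy=TRUE) in R 4.3.3, with Benjamini-Hochberg adjustment over 17449 features at 0.05. The SE is the log2 fold change divided by the square root of F, and 95% intervals use 8.425 degrees of freedom. CPM values are scaled by total gene counts and TMM. A count of 0 allows 3 counts, or 0.164 to 0.210 CPM, counting error only. Counts of replicates differed by more than sampling alone gives (chi-square over its degrees of freedom 3.44 to 4.00). Symbols came from a table of gene IDs, coordinates and exon lengths from GENCODE 29, promoters from RefSeq. The procedure was tested on simulated counts. Alternatives were RLE, upper-quartile and total scaling, cyclic loess offsets, DESeq2 1.42.0, limma-voom (limma 3.58.1), other filters, a replicate block, the 4 compared libraries alone and each library left out.

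The members and lists were chosen with earlier results of these data known. Pathway genes were named by a rule: from each list, comparison and direction, at most the 2 called genes of smallest p; RBPJ was added after its values were seen. Where dropping a library left a group with 1, its spread was taken from the other groups.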

Additional observations from a re-analysis of the deposited data

Results flagged for a closer look

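Effects at 4 h and 8 h against caged cells differed, by the test of the step between the times, for 5 named pathway genes and for no member. CIR1, a corepressor of RBPJ, stood 0.90 higher on the log2 scale at 8 h than at 4 h (edgeR adjusted p = 0.0293), with 20.3 and 18.9 CPM in caged cells, 12.6 and 14.5 CPM at 4 h and 21.5 and 29.3 CPM at 8 h. CNTN1 (-0.79, edgeR adjusted p = 0.0242), NEURL1B (-1.22, edgeR adjusted p = 0.0315), MYC (-0.44, edgeR adjusted p = 0.0417) and POFUT1 (-0.33, edgeR adjusted p = 0.0426) stood lower at 8 h than at 4 h. None of the 5 calls held in every fit that left out a library: CIR1 lost it in 3 of 6, CNTN1 in 4, NEURL1B in 5, and MYC and POFUT1 in all 6.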

How the results depend on the processing

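Against caged cells the number of the 9 members called was 1 at 4 h and 0 to 1 with a library left out, and 3 at 8 h, where leaving out any library gave 2. Between the times it was 0, with 0 to 1 when a library was left out, 1 with DESeq2 and with the 4 compared libraries alone. Of the 100 pathway genes 10 were called at 4 h (5 to 12 with a library left out, 6 without a filter), 27 at 8 h (15 to 24, so 15 without 8 h replicate 2 and 17 without caged replicate 1) and 5 between the times (0 to 3, 0 without a filter, 10 with DESeq2, 3 with cyclic loess offsets). With DESeq2 the 8 h calls of HES7, MAML2, FURIN, DTX2, NEDD4L, POFUT1 and TLE5 were lost. So were the 4 h calls of BHLHE41 and L3MBTL3. KDM5A lost its 8 h call with library totals, upper-quartile factors, cyclic loess offsets, no filter, the replicate block and the 4 compared libraries alone. The cause of these moves was not tested.

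With the replicate number as a block the pathway count between the times was 3, HES1 lost its call at 8 h, and no other member changed its call. The replicates' deviations correlated at -0.155 between caged and 4 h libraries, 0.254 between caged and 8 h and -0.297 between 4 h and 8 h, and the labels tie nothing to the numbers. With the 4 h numbers crossed, chosen after seeing the data, the pathway counts were 19 at 4 h and 15 between the times, and 2 members were called between the times.

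Sign changes touched only differences that had not passed. With a library left out, the 4 h difference ranged from -0.1146 to 0.0461 for HES4, -0.3799 to 0.1401 for NOTCH3 and -0.2402 to 0.0215 for HEYL, each above 0 without caged replicate 1, and HEYL stood at 0.0121 without 4 h replicate 1 and 0.0004 with cyclic loess offsets. At 8 h it ranged from -0.0214 (without 8 h replicate 2) to 0.2713 for NRARP and from -0.0919 to 0.0155 (without caged replicate 1) for NOTCH2. With cyclic loess offsets DLL1 stood at 0.0377 and DNM2 at -0.023 at 8 h. Between the times the range was -0.0469 (without 4 h replicate 2) to 0.1344 for HES1, -0.0324 (without 4 h replicate 1) to 0.246 for JAG1, with -0.0015 without 8 h replicate 1, and -0.0561 (without 4 h replicate 1) to 0.0754 for CREBBP, with -0.0105 without 8 h replicate 2. EP300 ranged from -0.0001 (without 4 h replicate 1) to 0.1465. With library totals the step was -0.0137 for HES1, -0.0463 for CREBBP and -0.0334 for TLE4, and with cyclic loess offsets -0.0382 for CREBBP and -0.0353 for TLE4. HEY1 at 8 h was 0.88 with library totals. With 2 libraries a group and as few as 92 counts for HEYL, differences of the size seen for HEYL, DLL1 and JAG1 did not pass.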
